A study of Mus musculus with 6 samples.

Results

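The respiratory chain members described here are the nuclear genes for the subunits of complexes I to V of the mitochondrial inner membrane and for cytochrome c, the small carrier between complexes III and IV. They were chosen by symbol and not by any measured value: protein-coding genes of GENCODE release M21 whose symbols begin with Ndufa, Ndufb, Ndufc, Ndufs, Ndufv, Uqcr, Cox4, Cox5, Cox6, Cox7, Cox8 or Atp5 (the Ndufaf assembly factors left out), plus Sdha, Sdhb, Sdhc, Sdhd, Cyc1 and Cycs. This gave 88 genes of the 55385 in the deposited table, of which 21897 are protein coding. Complex I holds 36 of them, complex II 4, complex III 9, cytochrome c 1, complex IV 20 and complex V 18. A pair of the genes share the symbol Atp5o, so there are 87 symbols.

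Poly(A) RNA was sequenced from the livers of 3 mice after vertical sleeve gastrectomy (VSG, bariatric surgery in which the greater part of the stomach is cut away) and of 3 mice after a sham operation, in order to find liver transcripts that differ after the surgery. All were C57BL/6 males with no allele or transgene named, 6 to 8 weeks old when the high-fat diet (HFD) began, fed it for 10 weeks before the operation and for 12 more weeks after it, so both groups carried the diet. There was 1 animal behind each library, and the groups differ in the operation and in whatever followed from it. The libraries are named Sham 1, 2 and 3 and VSG 4, 5 and 6 after their titles.

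The respiratory chain passes electrons from NADH (through complex I) and from succinate (through complex II) to complex III, then by cytochrome c to complex IV, which hands them to oxygen. Complexes I, III and IV pump protons across the inner membrane, and complex V, the ATP synthase, makes ATP as the protons flow back. Complexes I, III, IV and V are built from subunits of both the nuclear and the mitochondrial genome, whereas complex II is wholly nuclear. Hepatocytes are rich in mitochondria and depend on this chain for urea synthesis, gluconeogenesis and fat oxidation.

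Library depth was even, from 22804397 to 24191778 counts, and at this depth a gene with no count in a library can lie as high as 0.124 to 0.132 CPM (counts scaled to library size). CPM values below are scaled with TMM factors, and levels of different genes are compared only as FPKM, which also divides by the summed exon length of the gene. Hepatocyte markers (Alb, Ttr, Apoa1, Apoc3, Serpina1a and Tat) summed to between 42605 and 94963 CPM in every library, most of it Alb, as the liver label calls for. None of the 6 passed the test, but in Ttr and Apoc3 the VSG libraries lay below all sham libraries (56.4% and 64.3% of sham, adjusted p = 0.103 and 0.091), and in Serpina1a above them (160%, adjusted p = 0.0511). All 8 neutrophil genes examined were higher after VSG, with a summed level of 2.56 to 14.1 CPM in the sham libraries against 1799, 146 and 828 CPM in VSG 4, 5 and 6. Summed macrophage markers ran from 177 to 335 CPM in sham and from 330 to 670 CPM in VSG livers, with 1 of 4 called higher, and summed stellate cell and fibroblast markers from 472 to 831 CPM in sham and from 261 to 515 CPM in VSG livers, with 0 of 5 called. These macrophage and stellate cell sums overlapped between groups. Bile duct markers (7.72 to 18.7 CPM in sham, 20.4 to 49.3 CPM in VSG livers, carried by Sox9, which was called higher, while the other 3, Krt19, Krt7 and Epcam, stood at 59%, 55.8% and 43.7% of sham and were not called) and erythroid markers (72.9 to 124 CPM in sham, 129 to 216 CPM in VSG livers, 0 of 4 called) did not overlap between groups in their sums. In whole liver RNA, fewer cells of a type and less RNA per cell cannot be told apart, and the part of these other cells in the results below was not tested.

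Respiratory chain transcripts were lower after VSG across all 5 complexes. Of the 88 members, 81 had enough reads to be tested, and 32 of these (39.5%) fell with an edgeR Benjamini-Hochberg adjusted p under 0.05, while 0 rose. Among all 14454 genes tested, 7.87% were called lower, 6.79% higher and 14.7% in either direction. The median log2 fold change of the tested members was -0.51, a level of 70.4% of sham, with quartiles at -0.64 and -0.38, beside a median of 0.03 over all genes. Fold changes were negative for 78 members and positive for 3, none of which passed the test (Atp5g2, Cox7a2l and Atp5l). At an unadjusted p under 0.05 the same edgeR fit had 63 members lower (77.8%, beside 17% of all genes tested) and 0 higher.

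The number of calls depended on single libraries. Leaving out Sham 2, Sham 3, VSG 4 or VSG 6 left 2, 0, 5 and 0 members called, whereas leaving out Sham 1 or VSG 5 gave 35 and 45. Over these 6 refits the number called among all genes ranged from 159 to 2732, the member median from -0.61 to -0.45, and the members with a negative fold change from 77 to 80 of 81 or 82 tested.

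All 3 VSG libraries lay below all 3 sham libraries in 61 of the 81 tested members (75.3%), against 19.8% of all genes tested, and in 0 tested members did all VSG libraries lie above. Within a group most members also ranked the libraries alike. Sham 1 was the lowest of the sham libraries in 75 of 81 members and Sham 2 the highest in 63, and VSG 5 was the highest of the VSG libraries in 71. These ranks depend on the TMM factors (1.15, 0.924 and 1.09 in Sham 1, 2 and 3), which shift all genes of a library alike. As a share of raw counts the summed members were highest in Sham 3 (0.938%), and the ranks were not counted over all genes. Relative to the sham mean of each member, the median member stood at 86.6%, 110% and 104% in Sham 1, 2 and 3 and at 65%, 77.6% and 65.9% in VSG 4, 5 and 6. The least reduced library, VSG 5, was also the VSG library with the lowest summed neutrophil markers (146 CPM). VSG 4 and 6 differed in these markers (1799 and 828 CPM) but hardly in the median member, and no relation between the measures was tested. In the plot of members by library the black medians of the VSG libraries all lie below that of Sham 1.

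**Figure D1:**
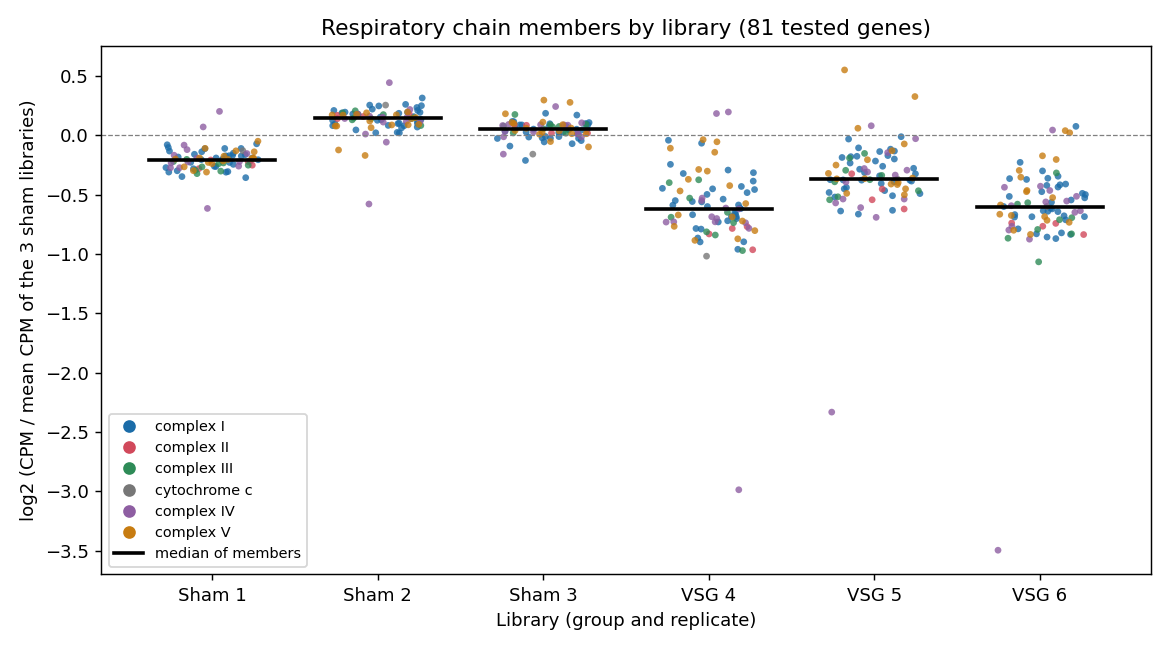
Each point is 1 of the 81 tested members in 1 library, as log2 of its CPM over the mean CPM of the 3 sham libraries, coloured by complex. Black bars mark the median of the members, which is -0.21, 0.14 and 0.05 in Sham 1, 2 and 3 and -0.62, -0.37 and -0.60 in VSG 4, 5 and 6; the low purple point in each VSG library is Cox7a1.

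Summed over the 88 members, the level was 7032, 9097 and 8619 CPM in Sham 1, 2 and 3 and 5053, 6236 and 5197 CPM in VSG 4, 5 and 6. The groups did not overlap, and the VSG mean (5495 ± 645 CPM, SD, n = 3) was 66.6% of the sham mean (8249 ± 1081 CPM, SD, n = 3). As a share of raw counts with no scaling factor, the members took 0.805%, 0.84% and 0.938% in Sham 1, 2 and 3 against 0.49%, 0.621% and 0.466% in VSG 4, 5 and 6, which did not overlap either. By complex, the summed VSG level was 70.5% of sham for complex I, 60.8% for complex II, 66.6% for complex III, 64.2% for cytochrome c, 69.4% for complex IV and 64.9% for complex V. These sums are weighted to the abundant members, so that Atp5a1 and Atp5b, with sham means of 947 and 1031 CPM, carried most of the 3083 CPM of complex V.

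**Figure D2:**
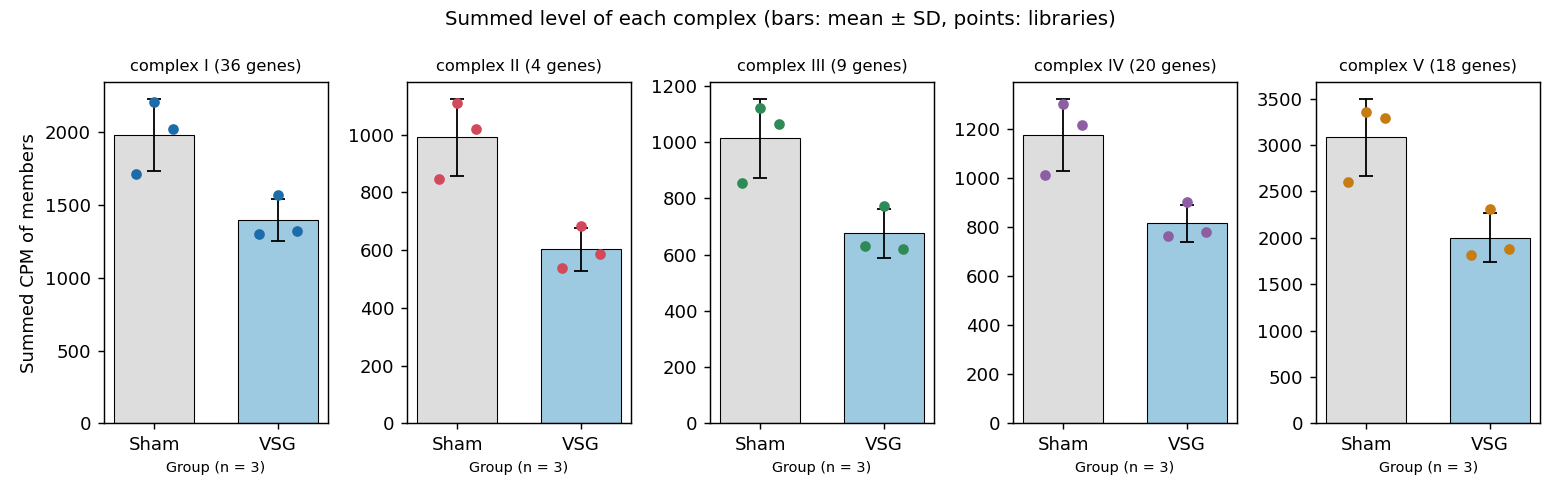
Summed CPM of the members of each complex, with a panel and a scale for each complex. Bars are the mean and error bars the SD of 3 libraries, and points are the libraries; in every panel the highest VSG library (VSG 5) lies below the lowest sham library (Sham 1).

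The stretch of DNA before 4 of the members that fell is shown because many respiratory chain promoters are known to hold sites for NRF1, a transcription factor of nuclear genes for mitochondrial proteins. The letters GCGCATGCG, a form of that site, were searched on both strands from 250 bases before to 50 bases after the RefSeq start of each gene. They were found in 9 of the 70 member symbols with a RefSeq promoter (12.9%) and in 1.95% of all 27025 genes with one. Of the members that fell and had a promoter, 5 of 28 held them, against 4 of 39 that were tested and not called. These are Atp5k, Cox6a1, Ndufa11, Ndufa8 and Uqcrc1, and in the first 4 the letters lie before the start. The stretches below are RefSeq sequence of build GRCm38.p6, written 5′ to 3′ on the strand of the gene, with the searched letters in capitals (a 10-letter run where the site reads on both strands and the matches overlap by all but 1 letter). Ndufa11 and Cox6a1 are shown over 150 bases upstream of the gene, and the other pair over 30 bases around the match, since the GENCODE gene begins further upstream there.
Ndufa11, chr17:56717612-56717761, plus strand: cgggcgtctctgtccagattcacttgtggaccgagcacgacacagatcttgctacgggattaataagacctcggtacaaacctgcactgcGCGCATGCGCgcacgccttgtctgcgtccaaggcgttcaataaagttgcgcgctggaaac
Cox6a1, chr5:115348982-115349131, minus strand: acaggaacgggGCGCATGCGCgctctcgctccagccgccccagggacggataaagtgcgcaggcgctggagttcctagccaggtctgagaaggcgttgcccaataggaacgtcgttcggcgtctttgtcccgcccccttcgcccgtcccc
Atp5k, chr5:108434430-108434459, minus strand: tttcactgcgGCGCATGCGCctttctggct
Ndufa8, chr2:36049339-36049368, minus strand: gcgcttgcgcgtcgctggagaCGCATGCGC
The match begins 60, 162, 50 and 9 bases before the RefSeq start in these genes. Ndufa11 and Ndufa8, both accessory subunits of complex I, fell by 0.66 and 0.52 on the log2 scale (adjusted p = 0.0269 and 0.0342), and the values of Cox6a1 and Atp5k follow with their complexes. The ETS letters CCGGAAG, the core bound by GABPA, were held by 16 of the 70 member promoters (22.9%) and by 9.93% of all genes. The YY1 letters AAGATGGCG were held by 7 (10%) against 1.64%, and the ESRRA letters TCAAGGTCA by 2 (2.86%) against 0.466%. Between members that fell and members tested but not called, the ETS letters were held by 5 of 28 against 11 of 39, the YY1 letters by 3 against 4 and the ESRRA letters by 0 against 2, and none of these splits was tested. A match is a description of these letters, not a measured binding site.

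Complex I, the NADH dehydrogenase, was tested for all 36 of its members. Of these 13 fell (36.1%, beside 7.87% of all genes) and 0 rose, with a median log2 fold change of -0.49. The 7 core subunits, which carry the flavin and the iron-sulfur clusters, and the 29 accessory subunits had the same median, -0.49, with 2 of 7 and 11 of 29 called lower. All 36 fold changes were negative, and in 29 (80.6%, beside 19.8% of all genes) every VSG library lay below every sham library. The core subunits that fell were Ndufs1 (-0.68, adjusted p = 0.0353), the large iron-sulfur subunit, and Ndufv1 (-0.55, adjusted p = 0.0336), which binds NADH.

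Ndufa10 (GRCm38 chromosome 1, 92439010 to 92473860), an accessory subunit of the membrane arm, had the largest fall in complex I. It measured 122, 159 and 149 CPM in Sham 1, 2 and 3 and 73.7, 90.5 and 83 CPM in VSG 4, 5 and 6. The VSG libraries all lay well below the lowest sham library, at a log2 fold change of -0.80 ± 0.139 (SE, edgeR adjusted p = 0.0186). Ndufb8 (chromosome 19, 44548572 to 44555440), a membrane arm subunit widely used as a protein marker of complex I, measured 46.4, 68.3 and 56.6 CPM in sham and 33.1, 39.8 and 31.2 CPM in VSG livers. Its sham libraries spread more than its VSG libraries but did not reach down to them (-0.72 ± 0.166, SE, adjusted p = 0.0354).

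Ndufa1 and Ndufc2 were among the complex I members with the highest level per length. Ndufa1, a small membrane arm subunit coded on the X chromosome, measured 31.7, 37.4 and 33.7 CPM in sham and 24.3, 22.1 and 24.2 CPM in VSG livers, and its mean FPKM went from 81.8 to 56.2. The groups were tight and apart (-0.54 ± 0.1, SE, adjusted p = 0.0214). Ndufc2, another membrane arm subunit, fell from 67.4 to 48.2 FPKM (-0.48, adjusted p = 0.0481), a call kept in 8 of 14 alternatives.

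Ndufab1, chosen after its values were seen, stood apart from the rest of complex I. It is the acyl carrier protein of the mitochondrial matrix, which also serves fatty acid synthesis and lipoic acid supply and sits in complex I as an accessory subunit. It measured 12.7, 15.7 and 14.3 CPM in sham and 13.6, 14.1 and 15 CPM in VSG livers. The groups overlapped fully, at a level of 100% of sham (adjusted p = 0.997), and 12.3% of the 50-base stretches of its transcript were shared with other genes.

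Complex II, succinate dehydrogenase, is both an enzyme of the citric acid cycle and an entry to the chain. It has 4 subunits, and 3 of them fell (75%, beside 7.87% of all genes), with a median over the 4 of -0.69. Sdha (chromosome 13, 74322254 to 74350280), the flavoprotein that oxidises succinate, measured 465, 604 and 544 CPM in sham and 276, 349 and 322 CPM in VSG livers. The groups were far apart, with the VSG mean at 58.7% of sham (-0.77 ± 0.162, SE, adjusted p = 0.0286).

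Sdhb (chromosome 4, 140961203 to 140979193), the iron-sulfur subunit, measured 117, 155 and 139 CPM in sham and 77, 100 and 76.7 CPM in VSG livers (-0.70, adjusted p = 0.0341). Sdhc, a membrane anchor, measured 128, 167 and 161 CPM in sham and 88.2, 104 and 90.8 CPM in VSG livers (-0.69, adjusted p = 0.0268). Sdhd, the other anchor, measured 135, 183 and 174 CPM in sham and 96, 131 and 96.2 CPM in VSG livers. In all 3 the highest VSG library, VSG 5, lay below Sham 1, though only just so in Sdhd, which did not pass the test (-0.60 ± 0.179, SE, adjusted p = 0.0661).

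Complex III, the cytochrome bc1 complex, had 9 members tested and 5 fell (55.6%, beside 7.87% of all genes), with a median of -0.58. Those that fell were the core proteins Uqcrc1 and Uqcrc2 (both -0.68, adjusted p = 0.0371 and 0.0328), the redox subunits Cyc1 (cytochrome c1, -0.66, adjusted p = 0.0415) and Uqcrfs1, and the small subunit Uqcr10. The 4 that did not pass were the small subunits Uqcr11, Uqcrb, Uqcrq and Uqcrh, at -0.58, -0.46, -0.38 and -0.28.

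Uqcr10 (chromosome 11, 4701973 to 4704342) had the largest fall of any member with more than 100 counts in every library. It measured 52.4, 68.1 and 72.6 CPM in sham and 32.8, 44.2 and 30.7 CPM in VSG livers. The VSG mean was 55.8% of sham with no overlap (-0.84 ± 0.183, SE, adjusted p = 0.0307). Uqcrfs1, the Rieske iron-sulfur protein, had the highest level per length of the complex, 130 FPKM in sham and 86.8 in VSG livers. It measured 153, 193 and 183 CPM in sham and 109, 136 and 109 CPM in VSG livers, again without overlap (-0.58, adjusted p = 0.0432).

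Cycs, cytochrome c, measured 4.69, 6.12 and 4.6 CPM in sham and 2.53, 3.98 and 3.39 CPM in VSG livers. Its groups did not overlap, but it was not called (-0.64 ± 0.228, SE, adjusted p = 0.104). Of the 50-base stretches of its transcript, 28.5% also occur in other genes, 76 of them in all, so its low counts are uncertain.

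Complex IV, cytochrome c oxidase, had 14 of its 20 members tested. Of these 7 fell (50%, beside 7.87% of all genes) and 0 rose, with a median of -0.55. Cox6b1 (chromosome 7, 30616861 to 30626151), a subunit on the intermembrane side, measured 126, 161 and 146 CPM in sham and 83.8, 89.4 and 92.1 CPM in VSG livers. Cox6a1, the liver form of a subunit at the dimer contact, measured 118, 157 and 142 CPM in sham and 83.8, 91.1 and 79.9 CPM in VSG livers. Both had tight VSG values well below sham, and both were called (-0.71 ± 0.121 and -0.71 ± 0.133, SE, adjusted p = 0.0176 and 0.0217). They were the complex IV members with the highest level per length, at 204 and 198 FPKM in sham and 125 and 121 FPKM in VSG livers.

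Cox5b, which binds zinc on the matrix side, measured 25.3, 30.4 and 28.8 CPM in sham and 17.3, 19 and 15.4 CPM in VSG livers, with no overlap (-0.71 ± 0.122, SE, adjusted p = 0.0178). Cox7a2, Cox7b and Cox8a, small membrane subunits, fell by 0.62, 0.61 and 0.62 on the log2 scale. Cox4i1, the common form of the regulatory subunit 4, was not called: its libraries were 204, 270 and 258 CPM in sham and 169, 220 and 165 CPM in VSG livers, where VSG 5 lay above Sham 1 (-0.40, adjusted p = 0.155). Ndufa4, once counted to complex I and now to complex IV, also missed the threshold (-0.44, adjusted p = 0.0723) without overlap of the groups, at 134, 166 and 152 CPM in sham and 97.7, 124 and 111 CPM in VSG livers.

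Cox7a1 (chromosome 7, 30184144 to 30186078), the form of subunit 7a typical of heart and skeletal muscle and of brown fat, had the largest fold change of all members at a very low level. Its reads numbered 19, 32 and 28 in sham and 3, 5 and 2 in VSG livers, and it passed the filter on low counts through the sham libraries alone, so that its difference was needed for it to be tested. Pooled over libraries, 10 counts against 79 give 14.3% of sham, with an exact 95% binomial interval of 6.62% to 27.8% that covers counting error only (-2.79 ± 0.461, SE, adjusted p = 0.0165). Its share of the FPKM of Cox7a1 and Cox7a2 together was 2.25 ± 0.563% in sham and 0.485 ± 0.128% in VSG livers (SD, n = 3). Muscle markers were near 0 throughout, with a summed level of 0.32 to 0.628 CPM in sham and 0.128 to 0.271 CPM in VSG livers over 6 genes, and adipocyte markers summed to at most 0.114 CPM in any library.

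Cox7a2l, a supercomplex assembly factor of which C57BL/6 mice are known to carry a short form, was among the 3 members with a positive value. It measured 26, 28.5 and 30.4 CPM in sham and 32.1, 27.7 and 29.1 CPM in VSG livers, fully overlapping (0.07 ± 0.104, SE, adjusted p = 0.672). With libraries scaled by total counts its value was -0.07, so its direction is not set. Cox7c, chosen after its values were seen, also overlapped (2.47 to 2.7 CPM in sham, 1.86 to 2.94 CPM in VSG livers), and 27.9% of its 50-base stretches are shared with other genes.

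The tissue-restricted forms of complex IV were nearly unread in liver. Cox7b2 and Cox8c had 0 counts in all 6 libraries, and Cox8b had 1 count in 1 library. Cox4i2, the form found mainly in lung, had 1 to 3 counts in sham and 2 to 8 in VSG livers. Cox6a2, the muscle form, had 0 to 2 and 1 to 7. Cox6b2, the testis form, had 4 to 8 counts in sham and 8 to 13 in VSG livers, and its CPM was higher in every VSG library than in any sham library (0.152 to 0.295 against 0.382 to 0.556 CPM). None of these 6 passed the filter on low counts. In the fit without that filter the 4 with any read were not called, with an adjusted p of 0.244 for Cox6b2 (1.08 ± 0.506, SE) and of 0.462 to 0.555 for Cox6a2, Cox4i2 and Cox8b. Cox6b1 made up 99.9% of the Cox6b FPKM in sham and 99.7% in VSG livers. Ndufa4l2, the form of Ndufa4 known to be induced by low oxygen, had 16 to 34 counts in sham and 15 to 27 in VSG livers and was not called (-0.31, adjusted p = 0.549).

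Complex V, the ATP synthase, had 17 of 18 members tested and 4 called lower (23.5%, beside 7.87% of all genes), with a median of -0.43. The second gene named Atp5o had 0 counts in every library. Atp5a1 and Atp5b, the alpha and beta subunits of the catalytic F1 head, had the highest level per length of all members. Atp5a1 went from 302 to 187 FPKM, with 769, 1049 and 1022 CPM in sham and 517, 669 and 569 CPM in VSG livers (-0.69 ± 0.19, SE, adjusted p = 0.0539). Atp5b (chromosome 10, 128083273 to 128090391) went from 243 to 154 FPKM, with 895, 1087 and 1111 CPM in sham and 590, 775 and 592 CPM in VSG livers (-0.66 ± 0.184, SE, adjusted p = 0.0575). In both, VSG 5 came closest to sham without reaching it, and both just missed the threshold.

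The 4 complex V members that fell were Atp5k (-0.64 ± 0.129, SE, adjusted p = 0.0263), a membrane subunit of the dimer interface, Atp5d (-0.58, adjusted p = 0.0343), the delta subunit of the central stalk, Atp5f1 (-0.56, adjusted p = 0.0473), the peripheral stalk subunit b, and Atp5j2 (-0.43, adjusted p = 0.0301), a membrane subunit. Atp5k measured 40.5, 52.9 and 47.8 CPM in sham and 28.5, 33.5 and 28.6 CPM in VSG livers, where every VSG library lay below every sham library. The median was -0.63 over the 5 F1 subunits and -0.41 over the 4 peripheral stalk subunits tested.

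The c ring, the rotor turned by protons, is coded by 3 genes for the same mature protein. Atp5g3 made up nearly all of their measured transcript, 99.1% of the FPKM of the 3 genes in sham and 98.5% in VSG livers. Of the 50-base stretches, 11.6% of Atp5g1 and 14.8% of Atp5g2 but 0% of Atp5g3 occur in other genes, so this share may be too high. Atp5g3 measured 209, 275 and 294 CPM in sham against 152, 194 and 145 CPM in VSG livers. It was lower in every VSG library than in any sham library but was not called (-0.66 ± 0.182, SE, adjusted p = 0.0546). Atp5g1 (2.55 to 3.53 CPM in sham, 2.74 to 2.96 CPM in VSG livers) and Atp5g2 (0.739 to 1.03 CPM in sham, 0.814 to 1.24 CPM in VSG livers) overlapped between groups and were not called, at -0.03 (adjusted p = 0.943) for the former and 0.20 (adjusted p = 0.668) for the latter. Atp5l and the coupling factor Atp5s, chosen after their values were seen, also overlapped, at 0.02 and -0.08 (adjusted p = 0.942 and 0.698), and 84.8% of the 50-base stretches of Atp5l occur in other genes.

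**Figure D3:**
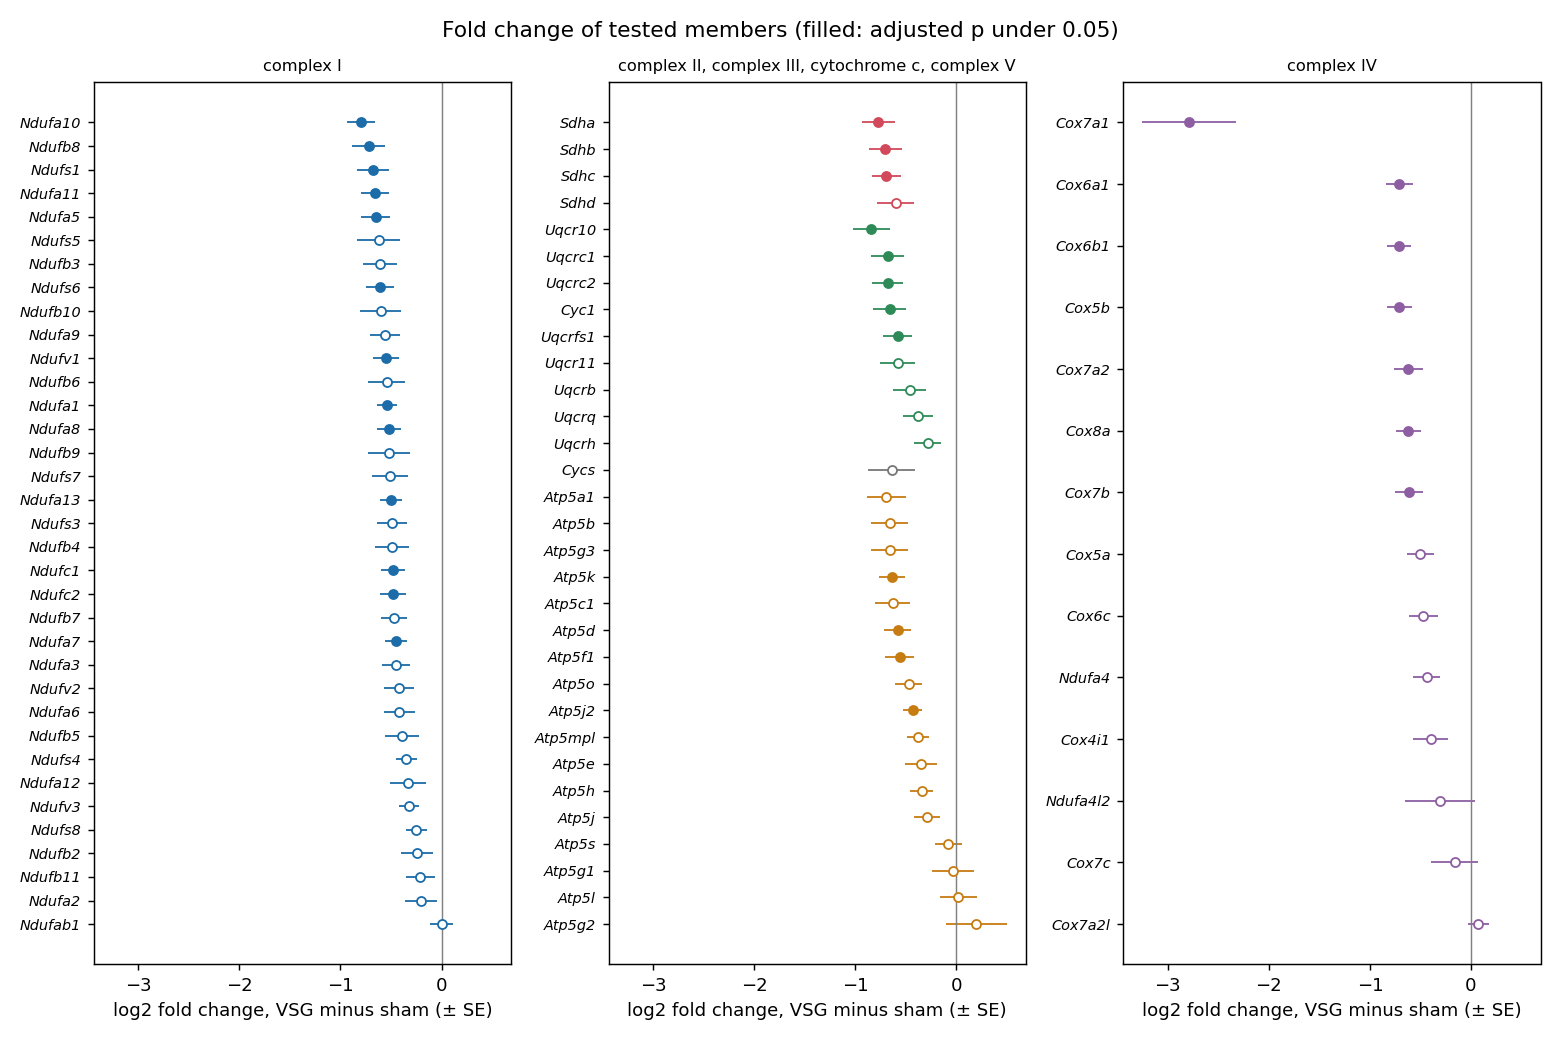
Log2 fold change (VSG minus sham) of 80 of the 81 tested members with its standard error, by complex, with filled points for the 32 with an edgeR adjusted p under 0.05. All filled points lie between -2.79 (Cox7a1) and -0.43 (Atp5j2), and the 3 open points right of 0 are Cox7a2l, Atp5l and Atp5g2.

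Abundant members had the larger median difference. Across the 81 tested members, Spearman's rho between mean FPKM and log2 fold change was -0.41, a description over genes that share the same 6 libraries. Of the 41 members at or above the median FPKM of 37.9, 19 fell (median -0.58, all 41 negative), and of the 40 below it 13 fell (median -0.47, 37 negative). Members whose sequence is shared with other genes had the smaller one. Of the 28 tested members with 10% or more of their 50-base stretches found elsewhere in GENCODE transcripts, 5 fell (median -0.47, 25 negative), and of the 53 with less, 27 fell (median -0.58, all 53 negative). Reads of shared stretches cannot be placed on 1 gene, and how the authors' counting treated them was not stated. Neither of these differences between members was tested.

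Genes that build or feed the chain were counted from fixed lists in the same fit. Of 53 tested assembly factors, which insert cofactors and join subunits but do not remain in the complexes, 9 fell (17%, beside 7.87% of all genes) and 0 rose, with a median of -0.31. By complex the counts are small, and that of complex I (5.88%) lies below the share of all genes. They were 1 of 17 for complex I (Ndufaf7, -0.47, at the edge of the threshold with an adjusted p of 0.05 after rounding), 0 of 4 for complex II, 2 of 6 for complex III (Uqcc1, -0.65, and Uqcc2, -0.51), 5 of 22 for complex IV (among them Coa6, -0.87, Cox19, -0.85, and Taco1, -0.57) and 1 of 4 for complex V (Tmem70, -0.39). Coa6 and Cox19 take part in copper supply to complex IV. For the complex II factors, the same fit gave 1 of 4 lower and 0 higher at an unadjusted p under 0.05, a cut that 17% of all genes passed in that direction.

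The subunits coded by the mitochondrial genome, partners of the members in complexes I, III, IV and V, gave no call. Of the 13, 7 were tested, and 0 were called by edgeR, with 0 also at an unadjusted p under 0.05 (7.87% and 17% of all genes were lower at these cuts). All 7 fold changes were negative, with a median of -0.27, and in mt-Nd1, mt-Co1 and mt-Nd4 (42.9%, beside 19.8% of all genes) every VSG library lay below every sham library. The complex I subunit mt-Nd4 had the lowest value (-0.48, adjusted p = 0.24), with 4984, 6827 and 4963 CPM in sham and 3284, 4184 and 4565 CPM in VSG livers. The other 6 (mt-Co2, mt-Co3, mt-Atp6, mt-Atp8, mt-Nd3 and mt-Nd4l) had at most 3 counts in any library, whereas the gene next to them, mt-Nd4, had at least 72585, so nothing can be said of them. Whether the difference between nuclear and mitochondrial subunits exceeds the spread was not tested.

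Citric acid cycle enzymes, which supply the NADH and succinate, fell in 8 of 14 cases (57.1%, beside 7.87% of all genes) with 0 higher and a median of -0.61. Among those that fell were Idh2 (-1.41, adjusted p = 0.00732) and Dlst (-0.77, adjusted p = 0.0191). Idh2 is the mitochondrial isocitrate dehydrogenase that makes NADPH rather than NADH, and Dlst is a subunit of the 2-oxoglutarate dehydrogenase. Idh2 measured 150, 161 and 172 CPM in sham and 51.8, 74.6 and 55.6 CPM in VSG livers, far apart. Of 9 genes for other routes of electron entry and for nucleotide exchange, 2 fell (22.2%), namely Gpd2 (-1.40, adjusted p = 0.00192), the mitochondrial glycerol-3-phosphate dehydrogenase, and Slc25a5 (-0.93, adjusted p = 0.0202), an ADP/ATP carrier. Of 12 import and outer membrane genes 4 fell (33.3%), among them Vdac1 (-0.73), Tomm20 (-0.47) and Timm50 (-0.45), with a list median of -0.22. Of 77 tested genes taken as mitochondrial ribosomal proteins by symbol (Mrpl or Mrps), 10 fell (13%, against 7.87% of all genes) and 0 rose, with a median of -0.28. Those with the lowest values were Mrps36 (-1.91), Mrps18a (-0.73) and Mrpl16 (-0.62). Despite its symbol, Mrps36 is counted to the 2-oxoglutarate dehydrogenase complex and not to the ribosome. It had 13 to 18 counts in sham and 2 to 5 in VSG livers and, like Cox7a1, passed the filter on low counts through the sham libraries alone.

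**Figure D4:**
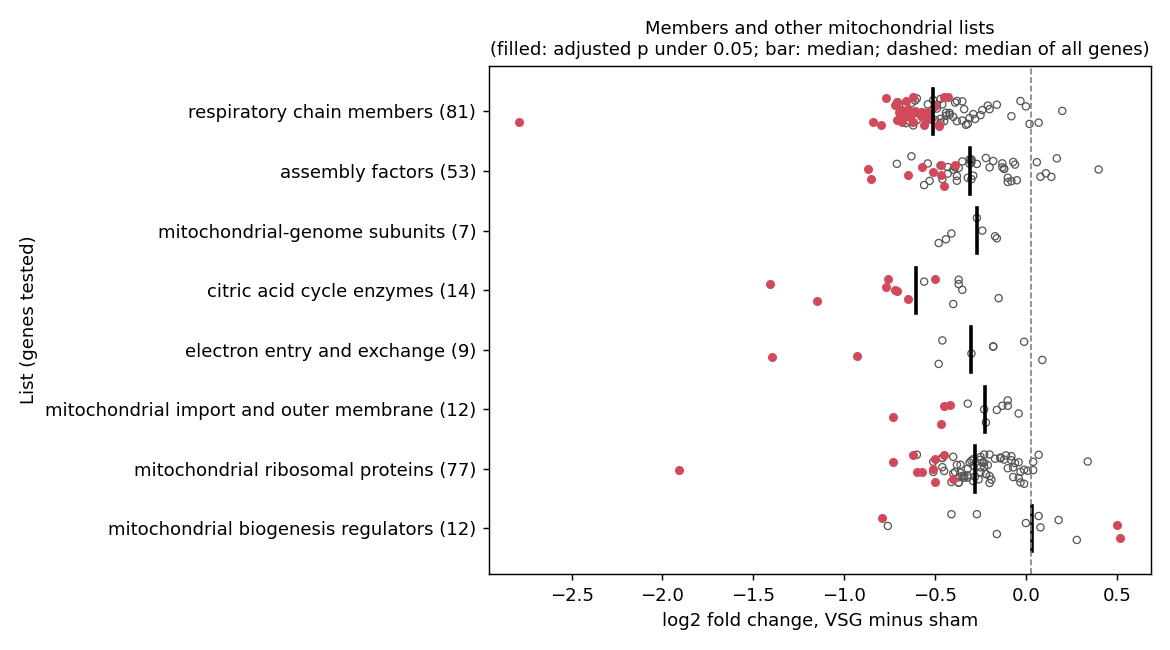
Log2 fold change (VSG minus sham) of the respiratory chain members and of 7 other mitochondrial lists, 1 point per tested gene, filled where the edgeR adjusted p was under 0.05. Black bars are list medians, -0.51 for the members, and the dashed line is the median of all genes, 0.03.

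Of 12 regulators of mitochondrial gene expression 1 fell (8.33%, near the 7.87% of all genes) and 2 rose, counts too small to describe the list. Ppargc1a, the PGC-1alpha coactivator that raises transcription of respiratory genes, measured 17, 24.8 and 20.9 CPM in sham and 9.82, 12.8 and 13.7 CPM in VSG livers. Its groups did not overlap and it fell (-0.79 ± 0.186, SE, adjusted p = 0.0371). Nrf1, whose site letters are shown above, measured 8.86, 9.18 and 8.21 CPM in sham and 12.9, 12.7 and 11.6 CPM in VSG livers, and it rose without overlap (0.50 ± 0.115, SE, adjusted p = 0.0344). Pprc1, a coactivator related to PGC-1alpha, also rose (0.52, adjusted p = 0.017). Ppargc1b (0.00, adjusted p = 0.995), Esrra (-0.41, adjusted p = 0.165), the nuclear receptor partner of PGC-1alpha, and Tfam (-0.27, adjusted p = 0.196), which packages and transcribes mitochondrial DNA, were not called.

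The share of members called lower exceeded the share of all genes called lower in every setting with all 6 libraries, as the plot of settings shows. It lay below that share in 3 of the refits without 1 library, at 2.44% against 3.31% without Sham 2, 0% against 0.748% without Sham 3 and 0% against 0.812% without VSG 6. The number of calls depended on the test and on the scaling. DESeq2 called 51 members lower and total-count scaling 53, and total-count scaling also moved the median of all genes to -0.11 and the split of all calls to 24.3% higher, from 46.3%. Relative to the median of all genes, the member median was -0.53 with TMM factors and -0.52 with total counts. At an unadjusted p under 0.05, 48 to 70 members were lower in the refits without 1 library, which is 58.5% to 85.4% of those tested beside 12.1% to 19.1% of all genes. At this cut 1 member was higher without Sham 1, 1 without VSG 6 and 0 in the other refits.

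**Figure D5:**
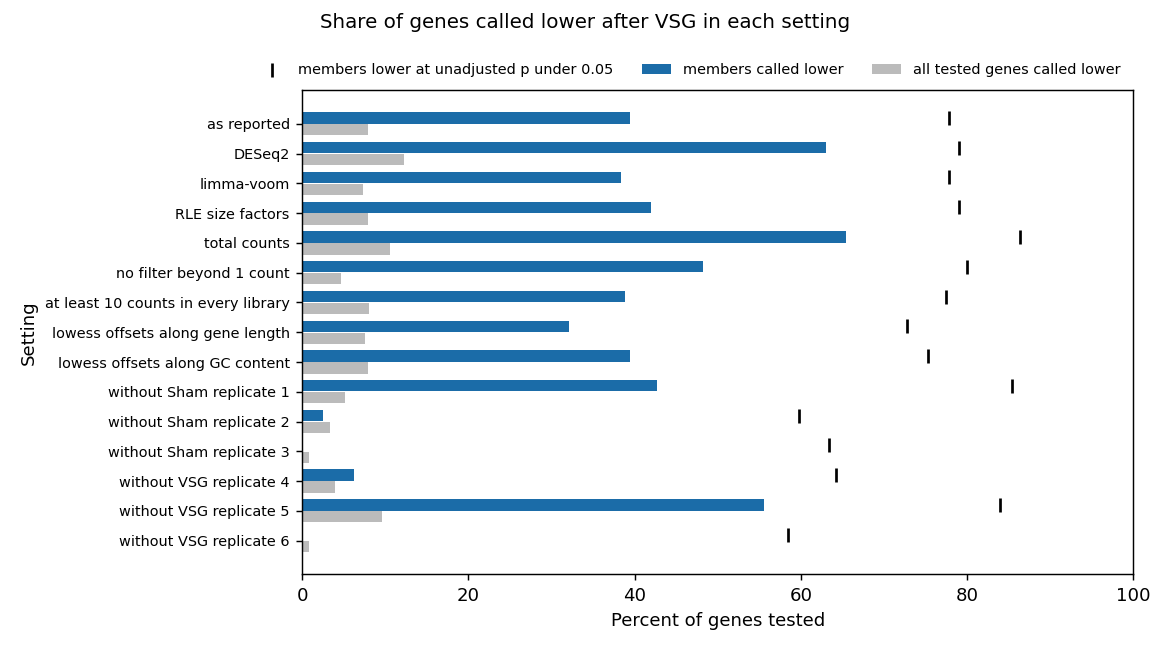
Percent of tested genes called lower after VSG at an adjusted p under 0.05 in each setting, for the members (blue bars) and for all genes (grey bars), with ticks for the percent of members lower at an unadjusted p under 0.05. Blue bars range from 32.1% to 65.4% with all 6 libraries and vanish without Sham 3 or VSG 6, where the ticks stand at 63.4% and 58.5%.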

How the data were processed

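Liver poly(A) RNA of 3 sham and 3 VSG mice was measured. The deposited table holds raw counts of reads for each gene. By the submitters' notes and the methods of the study, libraries were strand-specific, and the authors checked reads with FastQC 0.10.1, aligned them with STAR 2.6.0 to mm10, counted them with featureCounts 2.0.3 (the methods name another minor version) and compared groups with DESeq2. Annotation release, strand option and treatment of reads in several places were not given in the sources used here. All 88 members matched GENCODE M21 (GRCm38) by identifier and version.

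Counts were tested in R 4.3.3 with edgeR 4.0.16 (filterByExpr with minimum count 10 and minimum total 15, TMM, glmQLFit and glmQLFTest, group as the only term). P-values were adjusted by Benjamini-Hochberg over 14454 genes and called at 0.05. They measure the spread between 3 and 3 animals. No library pair of a group differed by counting noise alone (chi-square per degree of freedom at least 17.2). The floor was 3 counts per library, and floors and intervals cover counting error only.

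Members were taken by the rule on symbols and lists by gene name, but the rule and the lists were set with earlier results of these data known. The members named were the 10 largest called changes, the most abundant of each complex, complex II, Cycs and tissue isoforms; of other lists, up to 3 called genes, Ppargc1a, Ppargc1b, Esrra and Tfam. Others named (further called members, the 4 small complex III subunits that were not called, mt-Nd1, mt-Co1, mt-Nd4 and those said to be so) were chosen after their values were seen. Values of 1 member and 1 listed gene are not reported here, though both are in the counts. Alternatives were DESeq2 1.42.0, limma-voom (limma 3.58.1), RLE and total-count scaling, both filters, offsets along length (lowess span 0.3), each library left out, and the members without tissue forms and those that are no structural subunit. Offsets along GC content and members with little shared sequence were added after seeing the data. The fit was checked on simulated counts.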

Additional observations from a re-analysis of the deposited data

How the results depend on the processing

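No paired analysis was possible because the replicate numbers are not shared between groups. The member median stayed negative, between -0.63 and -0.44, in every alternative, and 0 members were called higher in any. Against 32 members lower and 2118 genes called, DESeq2 gave 51 and 3288 (4 genes have no adjusted p there), and total counts gave 53 members. Leaving out each library in turn gave 0 to 45 members lower, 159 to 2732 genes called and a member median of -0.61 to -0.45. The remaining counts of members lower were 31 with limma-voom, 34 with RLE, 41 of 85 without a filter, 31 of 80 with at least 10 counts in every library, 26 with length offsets, 32 with GC offsets, 31 of 77 without tissue forms and members that are no structural subunit, and 27 of 53 with little shared sequence. Of 447 alternative values of the named members, 350 kept direction and side of the threshold, 62 lost the call, 21 gained it and 14 turned direction, all in members near 0: Ndufab1 (0.01 limma-voom, 0.005 stricter filter, -0.08 to 0.07 with a library left out), Cox7a2l (-0.07 total counts), Atp5l (-0.10 total counts, -0.01 no filter, -0.02 length offsets, -0.09 GC offsets, -0.18 to 0.11 with a library left out), Atp5g1 (-0.11 to 0.14 likewise) and Atp5g2 (-0.04 to 0.35 likewise). The cause was not tested. At this depth Cox4i2, Cox6a2, Cox6b2 and Cox8b had too few reads for the filter, and none was called in the fit without it.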

Other observations

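The symbol rule left out several genes tied to the same complexes, and their values are given here. Ndufb1-ps, which M21 lists as a non-coding gene although its symbol is that of a complex I subunit, averaged 43.4 ± 9.1 CPM in sham livers against 31.2 ± 0.547 CPM after VSG (SD, n = 3; log2 fold change -0.48, edgeR adjusted p = 0.0915), with no overlap of the groups. Atpif1, the inhibitor that blocks ATP breakdown by complex V, had 16.2, 13.2 and 15.3 CPM in sham and 12.9, 9.19 and 10.4 CPM in VSG livers, again without overlap and without a call (-0.47, adjusted p = 0.0934). Usmg5, a small membrane subunit of complex V, overlapped between groups (-0.19, adjusted p = 0.392). Cyct, the testis form of cytochrome c, had 0 counts in every library.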
